A study of Mus musculus with 2 samples.

Results

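Capillary endothelial cells line the finest vessels of the brain. Here they are 2961 of the 37387 cell barcodes in 2 droplet RNA libraries, 1509 in the library labelled KO and 1452 in the library labelled WT. They were chosen by RNA content alone. A barcode needed at least 2000 UMIs (unique molecular identifiers, each a counted RNA molecule) and at most 10% mitochondrial UMIs. It also needed at least 0.2% of its UMIs from Cldn5 and Flt1, which mark endothelium. It was left out at 0.1% or more from the mural genes Vtn, Kcnj8 and Rgs5, at 0.2% or more from the microglial genes Tmem119, P2ry12, Siglech, Gpr34 and Sall1, or at 0.05% or more from the platelet genes Ppbp, Gp9 and Clec1b. Endothelial barcodes with at least 0.05% from Gkn3, Bmx and Sema3g were set apart as arterial. Those with at least 0.05% from Slc38a5 and Vwf were set apart as venous-side. What remained is the capillary group, so it is defined partly by the absence of other signals.

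The KO library comes from CD200R1-/- mice and the WT library from wild-type mice. All mice were C57BL/6J, 18 months old and untreated, and their brains were perfused with saline, dissociated enzymatically and passed over magnetic CD11b selection before 10x 3′ v3.1 library preparation. CD200R1 restrains myeloid cells when it meets its ligand, and the study asks about its part in neuroinflammation. There is 1 library per genotype, the number of mice behind each is not stated, and the labels name no batch. Genotype and library therefore cannot be told apart, no test between them is possible, and every interval below is a 95% interval that covers counting error only.

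Brain capillary endothelium forms the blood-brain barrier. Its cells are joined by tight junctions built on claudin 5, carry out little vesicular transport, and instead move glucose, amino acids, hormones and iron through dedicated carriers and receptors while pumping many drugs back into the blood. Gene expression changes gradually from arteries through capillaries to veins. Endothelial cells also carry interferon receptors and respond to interferon in the blood. CD200, the ligand of CD200R1, is displayed by neurons and endothelium.

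The markers fit an endothelial label, but they do not by themselves set capillary cells apart from arterial and venous-side cells. Cldn5 stood at 2268 CPM (UMIs per 1000000 UMIs of the cell group) in KO capillary cells and 2776 CPM in WT capillary cells, Flt1, a decoy receptor for VEGF, at 4919 and 4480 CPM, and both were used to choose the cells. Of the markers outside the rule, Ly6c1, a surface protein of brain endothelium, stood at 4303 CPM in KO and 4557 CPM in WT cells. Slco1a4, an organic anion carrier, stood at 3113 CPM in KO and 2996 CPM in WT cells. Arterial cells had more Ly6c1, at 6232 CPM in KO and 5975 CPM in WT, and venous-side cells less, at 2951 and 2915 CPM. For Slco1a4, venous-side cells had more, at 3312 CPM in KO and 3456 CPM in WT, and arterial cells less, at 2388 and 2236 CPM. Ly6c1 had a UMI in 99.5% of KO and 99.4% of WT capillary cells, against 32.6% and 37.3% of microglial barcodes of the KO and WT libraries. With every cell thinned to 2000 UMIs, these shares were 98.5% and 98.3% in capillary cells and 10.7% and 11.7% in microglial barcodes. The source of this RNA in the microglial barcodes was not tested. Median depth was 4794 UMIs in KO and 5972 in WT capillary cells, and 6981 and 8316 UMIs in the microglial barcodes of the same libraries.

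CD11b selection aims at myeloid cells, and CD11b is not an endothelial protein. Its gene Itgam stood at 38.6 CPM in KO and 36.5 CPM in WT capillary cells, against 490 and 472 CPM in KO and WT microglial barcodes. The 12 microglial markers summed to 2795 CPM in KO and 2673 CPM in WT capillary cells, and to 34300 and 32910 CPM in microglial barcodes. How endothelial cells came through the selection was not tested, and the shares below are of selected cells, not of vessels.

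Signals of other cells were uneven between the libraries. The 4 neutrophil markers summed to 24.0 CPM in KO and 804 CPM in WT capillary cells, and the 5 smooth muscle markers to 384 and 220 CPM. The 5 red cell markers summed to 3553 CPM in KO and 2585 CPM in WT cells. Ttr, an abundant choroid plexus transcript whose source in these cells was not tested, made up a median of 0.522% of a KO cell's UMIs and 0.285% of a WT cell's. Every defining marker of these types was above 0 in the capillary cells of both libraries, while Esm1, of sprouting endothelium, and Gp1ba, of platelets, were at 0 in KO capillary cells. A set of 110 KO and 89 WT capillary cells carried another type's marker list at 0.2% or more of UMIs, Ttr at 5% or more, or Ly6c1 and Slco1a4 together under 0.05%, and are called mixed cells below. Among those lists, Npy, Fabp7 and Ncam1 stood for olfactory glia, and the choice was made after the data were seen. Without them the choroid plexus markers still summed to 4486 CPM in KO and 2718 CPM in WT. Calls on list members named below that are lost without the mixed cells are given with the lists.

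The deposited matrices held 131196245 UMIs (KO) and 127429919 UMIs (WT), of which capillary cells gave 10201910 and 11219186. The libraries share 103 barcode sequences, carried by 10 KO and 15 WT capillary cells. A doublet caller marked 46 KO and 10 WT capillary cells, and these were kept. Cells just inside the endothelial limit, with 0.2% to 0.25% of UMIs from Cldn5 and Flt1, numbered 33 in KO and 17 in WT. Their median share of Ly6c1 and Slco1a4 was 0.355% in KO and 0.247% in WT. Just outside, at 0.15% to 0.2%, 37 KO and 17 WT barcodes had medians of 0.150% and 0.185%, and further inside the medians were 0.760% and 0.776%.

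Capillary cells made up 13.04% (12.4 to 13.7) of the 11573 KO barcodes that passed the UMI and mitochondrial filters and 14.4% (13.7 to 15.1) of the 10091 WT barcodes, a ratio of 0.906 (0.848 to 0.969). Of all endothelial barcodes they were 60.05% of 2513 in KO and 54.5% of 2663 in WT, a ratio of 1.10 (1.05 to 1.15). The rest divided into 398 KO and 503 WT arterial cells, 553 KO and 631 WT venous-side cells, and a few with both signals. These shares lean on depth, because in a cell of 2000 UMIs a lone UMI of an arterial or venous gene already reaches 0.05%. After every barcode was thinned to 2000 UMIs, capillary cells were 9.01% of KO and 9.51% of WT barcodes, a ratio of 0.947 (0.871 to 1.03). At a minimum of 4000 UMIs the ratio was 0.755. The KO cells had the lower median depth.

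Against arterial cells, capillary cells had lower levels of arterial genes and higher levels of many carriers. These are descriptions within each library, since the 3 groups were cut from the same RNA counts. Of 11296 genes, 51 (0.451%) were at least 2-fold higher in capillary than in arterial cells in both libraries and 96 (0.85%) at least 2-fold lower. Car4, a carbonic anhydrase on the capillary surface, had 429 CPM in capillary and 64.4 CPM in arterial cells of the KO library, and 432 and 47.9 CPM in those of the WT library. Mt1 and Mt2, metal-binding metallothioneins, Fmo2, a flavin monooxygenase, and Tmsb10, an actin-binding peptide, also led this list, with Flrt2, Adgrl3 and Ctla2a. Each of the 8 was at least 2-fold higher in capillary cells of both libraries.

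At the other end stood genes that were lower than in arterial cells. Egfl8, an EGF-repeat protein, had 15.98 CPM in capillary and 187 CPM in arterial cells of the KO library, and 18.4 and 211 CPM in the WT library. Eln, the elastin of elastic arteries, had 24.4 CPM in capillary and 117 CPM in arterial KO cells, and 30.2 and 147 CPM in WT cells. Fbln2, Igfbp3, Tmem100, Nos1, the noncoding RNA Mannr and Epb41l4a completed the 8 lowest of the ranking, which leaves out the marker lists of other cell types and of arterial and venous cells. Of the arterial markers not used by the rule, Vegfc, a lymphatic and vascular growth factor, stood at 24.7 CPM in capillary and 272 CPM in arterial KO cells, and at 28.3 and 270 CPM in WT cells. Hey1, a Notch target, stood at 50.8 and 140 CPM in KO and at 48.8 and 150 CPM in WT.

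Carriers were unevenly shared with arteries. Of 23 measured solute carriers of the barrier, 13 were at least 25% higher in capillary than in arterial cells in both libraries and 2 at least 20% lower (a log2 ratio of 0.32 in either direction, used for every list below), where 4.38% of all genes were higher and 5.04% lower. Tfrc, the transferrin receptor that brings iron into the brain, stood at 379 CPM in capillary and 145 CPM in arterial cells of the KO library, and at 303 and 105 CPM in the WT library. Slc16a1, the monocarboxylate carrier for lactate and ketones, stood at 156 and 63.0 CPM in KO and at 211 and 76.3 CPM in WT. Slc7a5, the large neutral amino acid carrier, stood at 777 and 389 CPM in KO and at 648 and 335 CPM in WT. The 2 lower ones were Slc6a6, the taurine carrier, and Slc2a1, the glucose carrier, which had 2498 CPM in capillary and 3505 CPM in arterial KO cells, and 2640 and 3572 CPM in WT cells. Apcdd1, a Wnt target and inhibitor, was higher in capillary cells, with 259 and 118 CPM in KO and 294 and 132 CPM in WT. Venous-side cells were closer. Against them 2 of 23 carriers were higher and 2 lower in both libraries, with median log2 ratios of -0.089 in KO and -0.12 in WT. KO and WT venous-side cells had Tfrc at 423 and 332 CPM, Slc16a1 at 212 and 275 CPM, and Apcdd1 at 297 and 367 CPM, all above capillary cells. Slc7a5 was slightly below, at 721 and 609 CPM.

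Signalling lists also parted capillary from arterial cells. Of 11 measured Notch genes, 8 were lower in capillary cells of both libraries by this limit and none higher. Over all genes 5.04% were lower and 4.38% higher, which holds for each list in this paragraph. Hey1 and Efnb2 of the Notch list are also arterial markers. Jag1, a Notch ligand, had 43.7 CPM in capillary and 110 CPM in arterial KO cells, and 50.5 and 114 CPM in WT cells. Of 15 immediate-early genes, which cells switch on within minutes of a stimulus, 11 were lower in capillary cells and none higher. Fos had 253 CPM in capillary and 444 CPM in arterial KO cells, and 211 and 464 CPM in WT cells. Of 17 MHC class I genes, 8 were lower in capillary cells and none higher. Median depth was 4794 UMIs in capillary and 7421 UMIs in arterial KO cells, and 5972 and 7982 UMIs in WT cells, and its part in these differences was not tested.

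Against venous-side cells, 60 of 11642 genes (0.515%) were at least 2-fold higher in capillary cells of both libraries and 44 (0.378%) at least 2-fold lower. Cxcl12, a chemokine, stood at 1999 CPM in capillary and 677 CPM in venous-side cells of the KO library, and at 2336 and 811 CPM in the WT library. Cdh13, a cadherin anchored in the membrane by lipid, had 80.8 and 8.60 CPM in KO and 98.2 and 11.7 CPM in WT. Lypd1, Runx1t1 and Rad54b were also among the 8 highest of the ranking, with the same markers left out. The remaining 3, Npy, Fabp7 and Csmd1, sat in a few mixed barcodes, and without those cells their log2 ratios were -0.044, 0.23 and 0.50 in KO and 0.28, 0.55 and 0.31 in WT. Npy and Fabp7 help define the mixed cells, so their fall follows from that choice. Without those cells 32 genes were higher in place of 60, and after thinning to 2000 UMIs 28.

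Several genes of inflammation were lower in capillary than in venous-side cells. Il1r1, the interleukin-1 receptor, had 69.2 CPM in capillary and 637 CPM in venous-side cells of the KO library, and 84.0 and 989 CPM in the WT library. Vcam1, a leukocyte adhesion molecule, had 43.7 and 476 CPM in KO and 50.6 and 566 CPM in WT. Nr2f2, the transcription factor of venous identity, had 59.4 and 242 CPM in KO and 73.1 and 263 CPM in WT. Lrg1, C4b, Ch25h, Cyp2e1, Adgrg6, Sdk1, Wnt5a and Myof were the 8 lowest of the ranking, with the same markers left out. Mfsd2a, the lysophospholipid carrier that restrains vesicle transport, stood at 246 CPM in capillary and 158 CPM in venous-side KO cells, and at 241 and 141 CPM in WT cells. Of 9 fatty acid genes, 5 were higher than in venous-side cells and none lower, where 6.35% of all genes were higher and 3.14% lower. Of 16 prostaglandin and cytokine genes, 7 were lower and none higher. Venous-side cells were deeper, with medians of 9874 UMIs in KO and 10018 UMIs in WT.

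**Figure D1:**
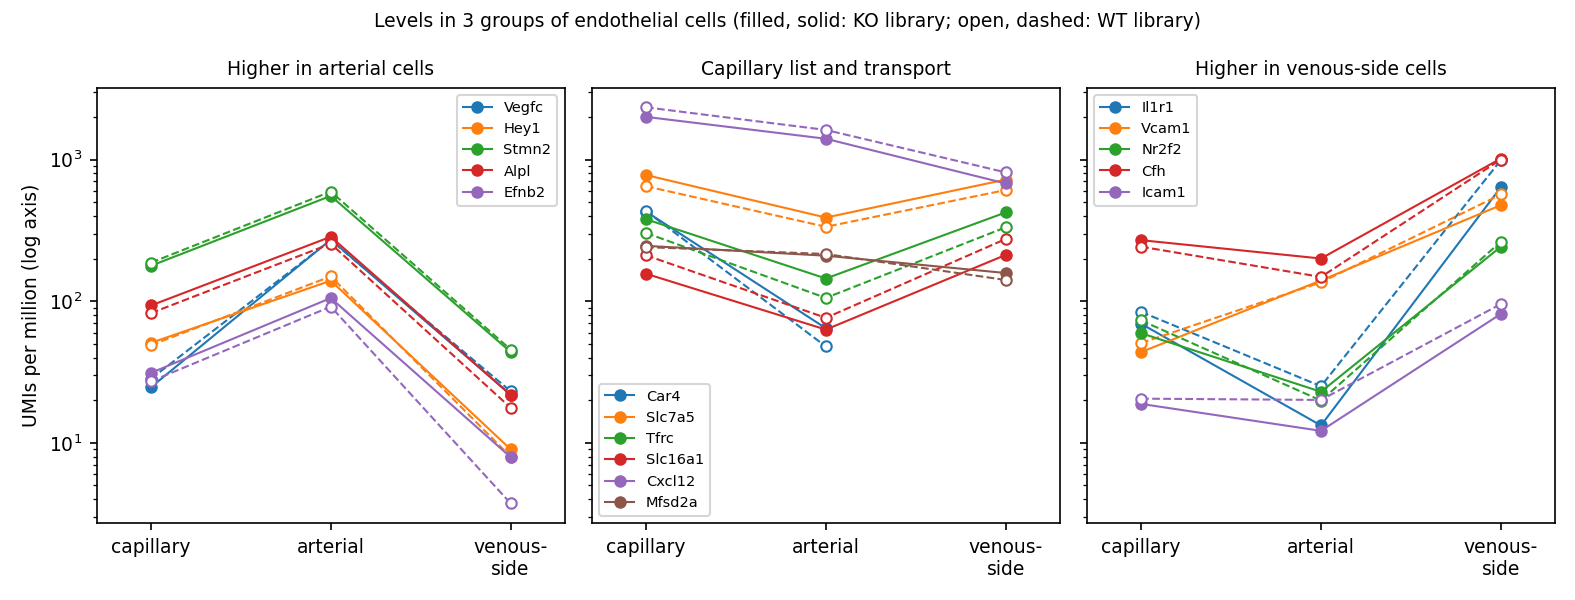
Levels in CPM on a log axis of 16 genes in capillary, arterial and venous-side endothelial cells, each point 1 library (filled with solid line, KO; open with dashed line, WT). Arterial markers at the left stand lower in capillary than in arterial cells, venous markers at the right lower than in venous-side cells, and Tfrc, Slc16a1, Slc7a5 and Car4 higher than in arterial cells, in both libraries; Car4 is shown for capillary and arterial cells only.

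Between the libraries, the leading difference was a set of interferon-stimulated genes that were higher in KO capillary cells. Of 12417 genes with at least 50 UMIs, 34 (0.274%) were at least 2-fold higher in KO and 20 (0.161%) at least 2-fold lower, on the scale of log2 CPM after adding 10 CPM, which understates the change of low genes. Of the 34, 28 belong to the lists of interferon response, interferon-induced GTPases, MHC class I presentation or interferon signalling. The other 6 were Hbb-bt, Mbp, Nr1d1, Oasl1, Phf11d and Slfn3. Without the mixed cells, 31 genes were higher and 6 lower of 11741.

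Isg15, a ubiquitin-like protein attached to other proteins after interferon, stood at 642 CPM in KO and 139 CPM in WT capillary cells, a ratio of 4.64 (4.39 to 4.90). Irf7, a transcription factor that amplifies the interferon response, stood at 278 CPM in KO and 66.3 CPM in WT, a ratio of 4.19 (3.87 to 4.55). Ifit3, of the family that blocks translation of viral RNA, stood at 392.3 CPM in KO and 95.4 CPM in WT, a ratio of 4.11 (3.84 to 4.40), and its relative Ifit1 at 464 and 132 CPM. The rest of the 10 highest were Ifi44, Ifit3b, Oasl2, Ifi27l2a, Bst2 and Rtp4, with ratios between 2.69 and 4.14. Bst2, tetherin, which holds budding virus at the surface, stood at 472 CPM in KO and 173 CPM in WT. In KO cells the signal was spread widely, and the 10 highest cells held 3.39% of Isg15 UMIs.

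All 10 genes were also higher in KO arterial and venous-side cells. Isg15 had a log2 ratio of 2.14 in capillary, 2.33 in arterial and 2.73 in venous-side cells, and Ifit1 had 1.74, 2.00 and 2.36. Whether these ratios differ between the groups was not tested. Microglial barcodes of the same libraries held Isg15 at 61.5 CPM in KO and 13.02 CPM in WT, levels below those of capillary cells in both libraries.

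**Figure D2:**
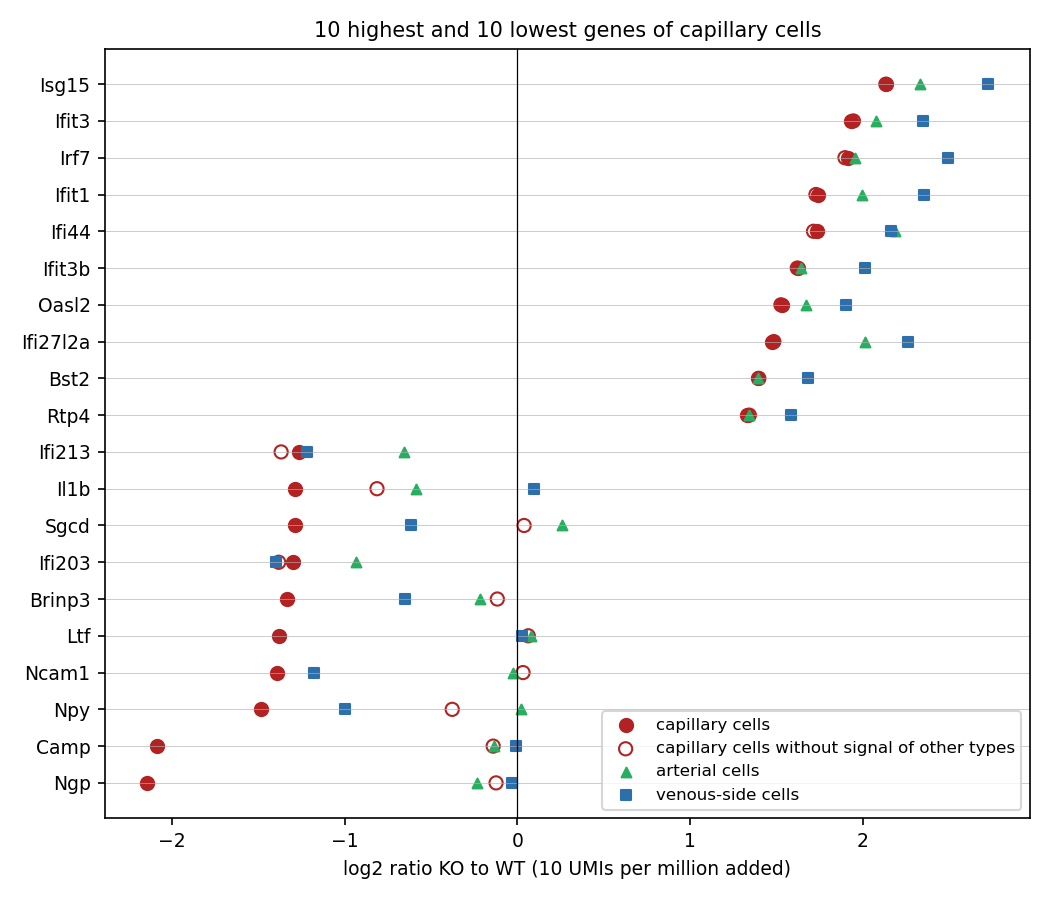
log2 ratio KO to WT, after adding 10 CPM, of the 10 highest and 10 lowest genes of capillary cells (filled circles), with the same after mixed cells were left out (open circles), in arterial cells (triangles) and in venous-side cells (squares). The highest genes stay between 1.33 and 2.73 in all 3 groups of cells, while 7 of the 10 lowest move to within 0.5 of 0 without the mixed cells. Of these 7, Npy and Ncam1 helped define the mixed cells.

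Of 40 listed type I interferon genes, 37 were measured in capillary cells; 36 were higher in KO by the limit for lists and none lower, where 2.64% of 14268 genes were higher and 2.47% lower. Their median log2 ratio was 1.04, against 0.013 over all genes. In arterial cells 35 of 37 were higher and none lower, where 5.21% of all genes were higher and 3.16% lower, and the list's median was 1.18 against 0.018 over all genes. In venous-side cells 36 of 37 were higher and none lower, where 2.74% of all genes were higher and 2.29% lower, and the median was 1.23 against 0.017. Summed, they took 8857 CPM in KO and 3722 CPM in WT capillary cells. Ifitm3, which blocks virus entry, was the most abundant, at 2191 CPM in KO and 996 CPM in WT. Zbp1, a sensor of Z-form nucleic acid, stood at 29.0 CPM in KO and 8.38 CPM in WT, and Oas1a, which starts RNA decay, at 38.03 and 15.7 CPM. Ifi27 was the exception, with 270 CPM in KO and 269 CPM in WT. Without the mixed cells the list's median was 1.05 with the same 36 of 37 counts.

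The signalling arm that drives these genes was partly higher. Of 15 genes of interferon receptors and signalling, 6 were higher in KO and none lower, with a median of 0.19, where 2.64% of all genes were higher and 2.47% lower. The receptor chains Ifnar1 and Ifnar2 stood at 160 and 325 CPM in KO and at 139 and 303 CPM in WT, below the limit. The transcription factors downstream were higher. Stat2 stood at 121 CPM in KO and 51.1 CPM in WT, and Irf9 at 132 and 70.5 CPM. Usp18, which removes Isg15 from proteins and dampens the receptor, stood at 127 CPM in KO and 58.4 CPM in WT.

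Effector families that both interferon types induce were also higher, where 2.64% of all genes were higher and 2.47% lower by the limit for lists. All 15 interferon-induced GTPases, which attack vacuoles of microbes, were higher in KO, with a median log2 ratio of 0.88. Iigp1 stood at 181 CPM in KO and 77.8 CPM in WT, Gbp3 at 176 and 79.7 CPM, and Gbp4, the least changed, at 44.4 and 31.0 CPM. Of 17 MHC class I genes, 14 were higher and none lower, with a median of 0.50. H2-T23, a nonclassical class I molecule, stood at 376 CPM in KO and 210 CPM in WT. B2m, the shared light chain, stood at 1750 CPM in KO and 1198 CPM in WT, and Psmb8, of the immunoproteasome, at 223 and 140 CPM. The classical heavy chain H2-D1 differed least, at 1016 and 897 CPM. Families of near-identical copies, such as Ifit3 with Ifit3b, Tgtp1 with Tgtp2 and the H2-Q genes, share sequence, so the split between their members is uncertain.

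The promoters of these genes can be read for the element that interferon-activated factors bind. Windows of 250 bases before to 50 bases after each start site were taken from RefSeq for GRCm38.p6, and 8 of the 10 highest genes matched. They were searched for GAAANNGAAA on both strands, where N is any base and matches may overlap. The motif was in the window of 1079 of 27025 genes (3.99%), of 13 of 29 matched type I interferon genes (44.8%), of 9 of 10 GTPases, of 4 of 15 MHC class I genes and of 0 of 19 solute carriers. Among the 8 it was in Isg15, Ifit1, Ifit3, Ifit3b and Bst2, and not in this window of Irf7, Ifi44 or Oasl2. Of the 10 lowest genes 9 matched, and the motif was in 2 of them (22.2%), Ifi203 included. The windows of Isg15 (chr4:156200769-156201068, minus strand) and Ifit1 (chr19:34640639-34640938, plus strand) are shown 5′ to 3′ as examples from the 10 highest genes. Capitals mark the motif on either strand. Isg15 has 3 overlapping matches, starting 78, 72 and 66 bases before the start site, and Ifit1 has 2 separate ones read as TTTCNNTTTC.

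Isg15: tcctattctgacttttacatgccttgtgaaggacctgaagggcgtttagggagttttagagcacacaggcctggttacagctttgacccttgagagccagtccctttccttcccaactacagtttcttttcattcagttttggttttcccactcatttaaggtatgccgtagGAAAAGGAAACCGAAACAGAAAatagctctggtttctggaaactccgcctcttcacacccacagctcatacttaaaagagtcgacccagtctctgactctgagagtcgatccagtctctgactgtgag
Ifit1: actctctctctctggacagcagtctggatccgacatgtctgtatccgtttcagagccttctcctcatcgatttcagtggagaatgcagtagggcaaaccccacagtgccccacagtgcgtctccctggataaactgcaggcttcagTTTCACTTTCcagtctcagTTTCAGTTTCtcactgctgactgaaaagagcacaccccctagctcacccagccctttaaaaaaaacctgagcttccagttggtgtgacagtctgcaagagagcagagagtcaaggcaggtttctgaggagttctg

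The match of Ifit3 nearest its start site and 1 of the overlapping matches of Bst2, with 8 bases on either side, read as follows.
Ifit3: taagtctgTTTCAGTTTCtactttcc
Bst2: aggaaaatGAAACTGAAAggctgcag

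A match describes the letters only. It is no measure of binding, and its absence from these 300 bases says nothing of the rest of a gene. Bst2 lies on chromosome 8 and Ifit3 beside Ifit1 on chromosome 19.

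Per cell, the interferon difference was a shift of nearly the whole population. With cells thinned to 2000 UMIs, the type I interferon list made up a median of 0.85% of UMIs in KO cells, with 0.45% and 1.4% at the 10th and 90th percentiles, and a median of 0.30% in WT cells, with 0.1% and 0.7%. Of KO cells, 96.8% lay above the WT median, and 65.9% above the WT 90th percentile. A tail of WT cells reached the KO range, and 5.23% of them lay above the KO median of 0.85%. The lowest KO cell had 0.1% and the highest WT cell 3.9%. Isg15 had a UMI in 68.3% of thinned KO and 20.2% of thinned WT capillary cells, and in 86.3% and 41.0% of unthinned ones.

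**Figure D3:**
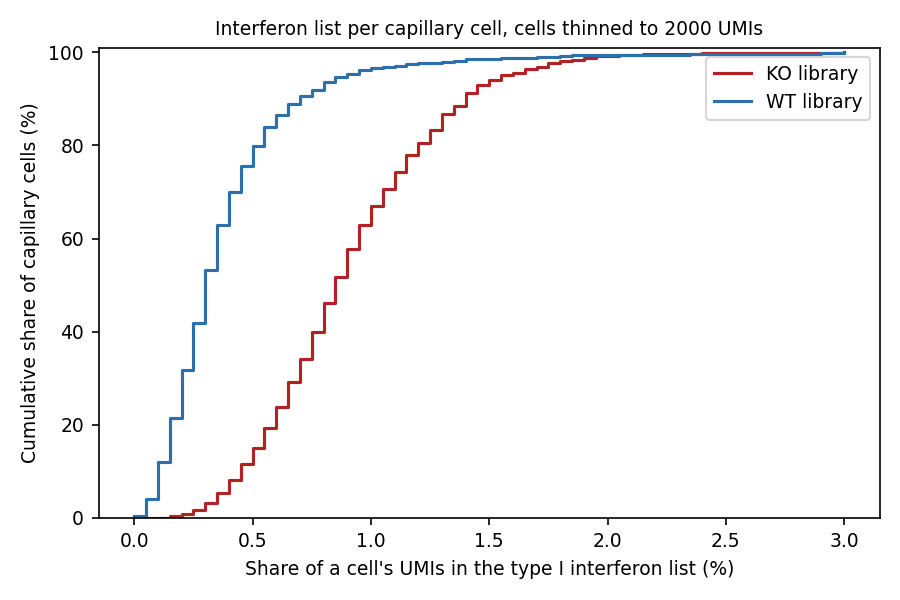
Cumulative share of capillary cells (vertical axis, %) by the share of their UMIs in the type I interferon list (horizontal axis, %, drawn to 3%), with each cell thinned to 2000 UMIs. The KO curve lies to the right, with a median of 0.85%, and the WT curve has a median of 0.30%.

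Most of the 10 genes lowest in KO had many of their UMIs in few barcodes. S100a8 and S100a9, neutrophil markers that the ranking leaves out, had 105 and 115 UMIs in KO and 4222 and 4254 in WT, and 10 WT cells held 95.6% and 94.9% of the WT UMIs. Ngp, Camp and Ltf, granule proteins of neutrophils, had 383 of 413, 385 of 407 and 191 of 197 WT UMIs in the highest cell. Npy, Ncam1, Sgcd and Brinp3 were less concentrated: the 10 highest WT cells held between 61.4% and 73.4% of their UMIs, and 11 KO and 26 WT capillary cells carried genes of olfactory glia. Without the mixed cells, the log2 ratios of Npy, Ncam1 and Sgcd were -0.38, 0.033 and 0.039. Npy and Ncam1 are in the olfactory glia list that picks mixed cells, so their values without those cells follow from that choice. Sgcd is not in that list.

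Il1b, Ifi203 and Ifi213 were low without these cells too. Il1b had 29 UMIs in KO and 239 UMIs in WT capillary cells, and 10 WT cells held 78.7% of the WT UMIs. Without the mixed cells Il1b had 23 UMIs in KO and 121 UMIs in WT, a log2 ratio of -0.81. Ifi203, an interferon-inducible DNA-binding protein, had 80.5 CPM in KO and 212 CPM in WT capillary cells, a ratio of 0.379 (0.350 to 0.410), with UMIs in 404 KO and 947 WT cells. Ifi213, of the same family, had 8.33 CPM in KO and 34.1 CPM in WT, a ratio of 0.245 (0.191 to 0.310). Both were lower although the interferon lists were higher, and both were also lower in KO arterial and venous-side cells, with log2 ratios of -0.94 and -1.40 for Ifi203. A further ranking had no mixed cells and left out markers of other cell types and of arterial, venous, and fenestrated or sprouting endothelium. In it Ifi203, Ifi213, Mndal and Ifi206 were the 4 lowest genes, followed by Nrgn, Fkbp5, Depp1 and Rbp7. Plvap, left out as a marker of fenestrated endothelium, had a log2 ratio of -1.17 without the mixed cells, against -1.07 for Ifi206.

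**Figure D4:**
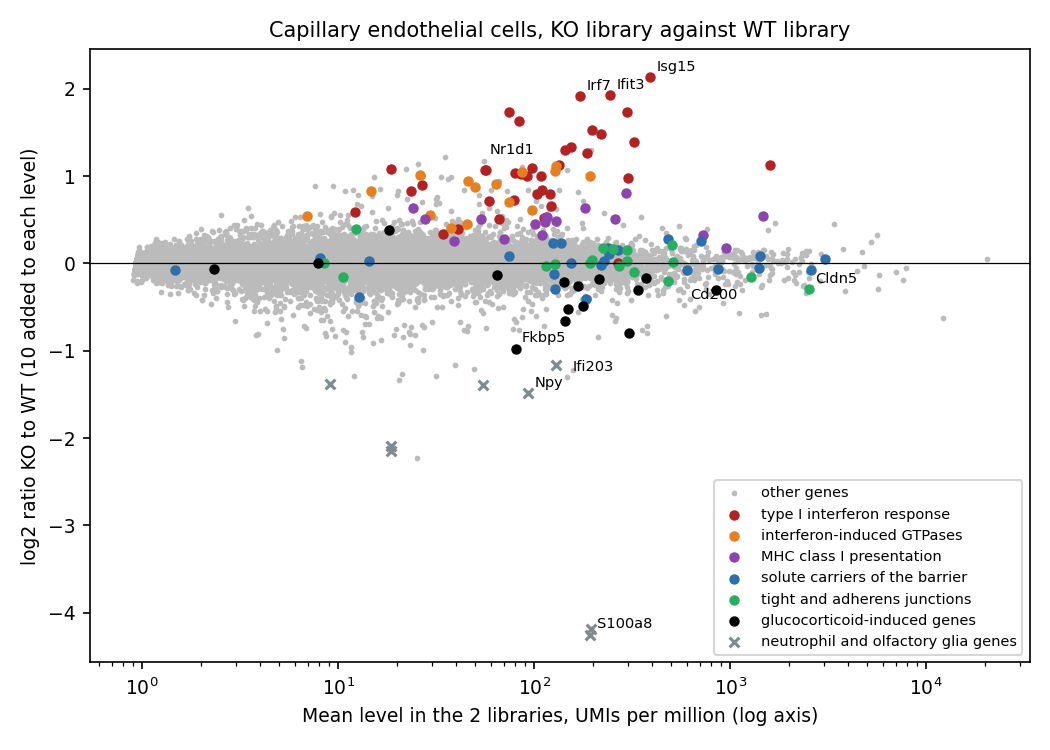
Each point is a gene in capillary cells, with its mean level in the 2 libraries in CPM on a log axis (horizontal) and its log2 ratio KO to WT after adding 10 CPM (vertical); colours mark 6 gene lists and crosses mark genes of neutrophils and olfactory glia. Interferon genes form the upper cloud, led by Isg15 at 2.14, carriers and junction genes lie near 0, and S100a8 stands at the bottom.

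Glucocorticoid-induced genes tended to be lower in KO. Of 15, 5 were lower and 1 higher, with a median of -0.26, where 2.47% of all genes were lower and 2.64% higher. The same shares over all genes belong beside every list count between the libraries that follows. Fkbp5, a chaperone of the glucocorticoid receptor and a standard readout of the hormone, stood at 51.1 CPM in KO and 110 CPM in WT, a ratio of 0.464 (0.418 to 0.514). Zbtb16, a zinc finger repressor, stood at 221 CPM in KO and 391.7 CPM in WT, Ddit4, an mTOR inhibitor, at 110 and 179 CPM, Sgk1, a kinase, at 120 and 177 CPM, and Cdkn1a, the p21 cell cycle inhibitor, at 146 and 209 CPM. Errfi1 was the gene that was higher, at 21.8 and 14.4 CPM, its direction turned after thinning, and without the mixed cells its log2 ratio was 0.039. The list's median was -0.24 in arterial and -0.33 in venous-side cells. Fkbp5 was lower in KO microglial barcodes too, at 358 CPM in KO and 732 CPM in WT.

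Of 16 clock genes, 3 were higher in KO and none lower, where 2.64% of all genes were higher and 2.47% lower. Nr1d1, the clock repressor REV-ERB alpha, stood at 80.5 CPM in KO and 30.0 CPM in WT, a ratio of 2.69 (2.36 to 3.06), and Dbp, a rhythmic transcription factor, at 216 and 118 CPM. Ciart stood at 45.9 CPM in KO and 30.8 CPM in WT. The other 13 of 16 clock genes lay within the limit, among them Per1, Per2 and Per3, with log2 ratios of -0.14, -0.11 and -0.13, and the list's median was 0.057. Nr1d1 had log2 ratios of 1.18 in capillary, 1.21 in arterial and 1.21 in venous-side cells. The hour at which brains were taken is not given in the sources used here, and its part was not tested.

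Junction genes and carriers of the barrier differed little between the libraries, where 2.64% of all genes were higher and 2.47% lower by the limit. Of 18 measured junction genes, only Marveld2, tricellulin of the corners where several cells meet, passed the limit, at 15.4 CPM in KO and 9.36 CPM in WT, and the list's median was 0.0046. Cldn5 had a ratio of 0.817 (0.803 to 0.831), but it is 1 of the genes that chose the cells, so this ratio depends on the choice. Ocln, occludin, stood at 269 CPM in KO and 274 CPM in WT, and Cdh5, the cadherin of endothelial adherens junctions, at 314 and 281 CPM. Of 24 solute carriers none was higher and 2 were lower, with a median of 0.030. Those 2 were Slc16a1, with a ratio of 0.741 (0.695 to 0.790), and Slc29a1, a nucleoside carrier, at 9.80 CPM in KO and 15.9 CPM in WT, whose log2 ratio was -0.23 without the mixed cells. Slc2a1 stood at 2498 CPM in KO and 2640 CPM in WT. The amino acid carriers Slc7a1 and Slc7a5 were at the upper end, with log2 ratios of 0.28 and 0.26, below the limit.

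Efflux and vesicle transport were likewise close. None of 9 ABC transporters passed the limit, with a median of -0.066. Abcb1a, P-glycoprotein, stood at 1404 CPM in KO and 1374 CPM in WT, and Abcg2 at 1285 and 1287 CPM. The 20 measured genes of receptors and vesicles of transcytosis had a median of -0.0066, and of these Plvap, which makes the diaphragms of leaky capillaries, was lower. Plvap had 1 UMI in KO and 145 UMIs in WT, all in 14 WT cells. Mfsd2a stood at 246 CPM in KO and 241 CPM in WT, Cav1, the caveolin, at 253 and 296 CPM, and Igf1r, a receptor for insulin-like growth factor, at 3029 and 2808 CPM. Tfrc had a log2 ratio of 0.31, just under the limit.

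Signalling that shapes vessels showed few differences, where 2.64% of all genes were higher and 2.47% lower by the limit. None of 17 genes of VEGF, angiopoietin and apelin signalling, of 20 of Wnt signalling, and of 14 of TGF-beta and BMP signalling passed the limit, with medians of 0.077, -0.069 and -0.013. The VEGF list includes Flt1, which helped choose the cells. Lef1, the transcription factor of Wnt signalling that keeps the barrier, stood at 783 CPM in KO and 735 CPM in WT, and Kdr, the main VEGF receptor, at 278 and 258 CPM. Of 12 Notch genes only Hey2 was lower, at 6.57 and 12.1 CPM, and thinning turned its direction. Of 14 genes of flow response and vascular tone, Nos3, the endothelial nitric oxide synthase, and Gucy1a1 were higher, and Ace, Ednrb and Adm lower. Nos3 stood at 156 CPM in KO and 122 CPM in WT, and Klf2, the flow-induced transcription factor, at 1304 and 1578 CPM.

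Metabolic and stress lists leaned lower or stayed level, where 2.47% of all genes were lower and 2.64% higher by the limit. Lists with only 1 or 2 genes past the limit are not read as changed. Of 16 glycolysis genes 4 were lower and none higher, with a median of -0.17, led by Ldha, lactate dehydrogenase, at 211 CPM in KO and 286 CPM in WT. Among 13 heat shock genes Hspa1b was lower, at 133 and 201 CPM, and none was higher. Of 16 immediate-early genes 1 was higher and 1 lower, and without the mixed cells none was higher and 2 lower. None of 13 iron genes and none of 12 measured leukocyte adhesion genes passed the limit. Vcam1 stood at 43.7 CPM in KO and 50.6 CPM in WT, and Icam1 at 18.8 and 20.5 CPM. Of 12 coagulation genes F3, tissue factor, and Plat, tissue plasminogen activator, were lower and none higher, with Plat at 239 CPM in KO and 303 CPM in WT. Of 18 prostaglandin and cytokine genes Ptgs2 was higher, and Lcn2 and Ccl2 were lower. Without the mixed cells Ccl2 alone of these passed the limit, and the log2 ratios of Ptgs2 and Lcn2 were 0.13 and 0.074. Of 14 basement membrane genes Agrn and Lama4 were higher and none lower. Of 10 signals to mural cells Hbegf was higher, and of 10 fatty acid genes Fabp5 was higher, with none lower in either list. Without the mixed cells no coagulation, Notch or fatty acid gene passed the limit, and of the flow genes Nos3 and Ace did.

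**Figure D5:**
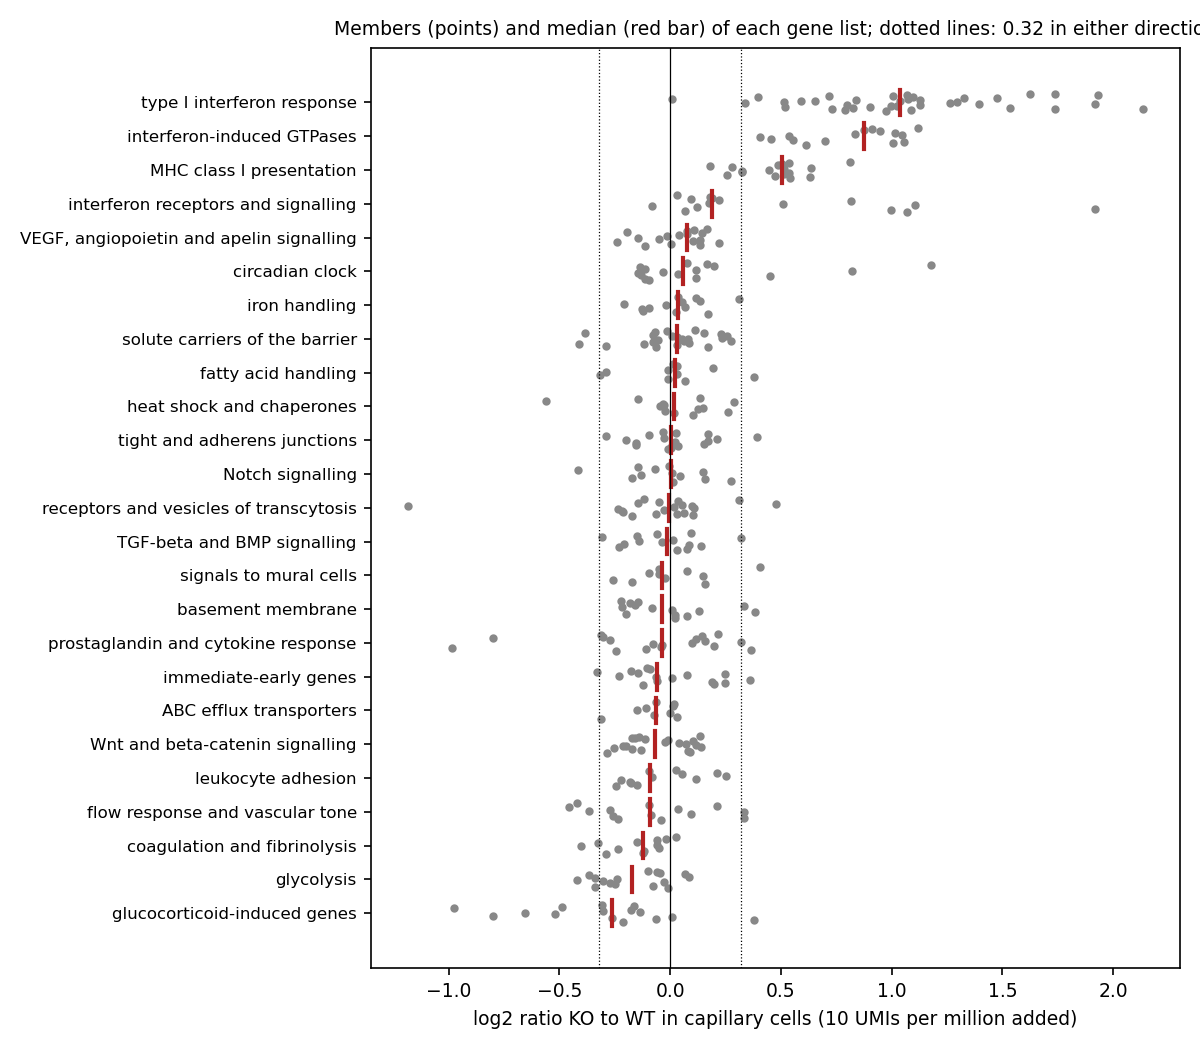
Members (grey points) and median (red bar) of 25 gene lists, as the log2 ratio KO to WT in capillary cells after adding 10 CPM; dotted lines mark the limit of 0.32 in either direction. The type I interferon list has a median of 1.04, the GTPases 0.88 and MHC class I 0.50, and the glucocorticoid list is lowest at -0.26.

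Cd200 encodes the ligand of the receptor that the KO mice lack. It stood at 485 CPM in KO and 679 CPM in WT capillary cells, a ratio of 0.714 (0.689 to 0.740), with UMIs in 1255 of 1509 KO and 1340 of 1452 WT cells. In cells thinned to 2000 UMIs it was found in 58.0% of KO and 69.1% of WT cells, against 1.39% and 1.74% of microglial barcodes. Its log2 ratio was -0.48 in capillary, -0.23 in arterial and -0.36 in venous-side cells, and whether these differ was not tested. The receptor gene itself had too few UMIs in capillary cells for a comparison, and a 3′ library need not reach a deleted part, so the labels were not checked this way.

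Within each library the cells varied most in a few abundant transcripts. The list was made after the values were seen, from cells without mixed signal thinned to 2000 UMIs, by the variance over the mean, whose median over 1793 genes was 1.08 in KO and 1.09 in WT. Cst3, a microglial cysteine protease inhibitor also made elsewhere, reached 11.7 in KO and 12.4 in WT, Malat1, a nuclear RNA, 10.2 and 11.3, and Ttr 8.25 and 6.06. Among endothelial genes Mgp, a calcification inhibitor of arteries, reached 4.06 in KO and 7.97 in WT, Ly6c1 3.45 and 3.77, and Cxcl12 2.62 and 2.98. Capillary markers had a like spread in both: Ly6c1 with Slco1a4 made up a median of 0.75% of thinned UMIs in both libraries, with 0.4% and 1.2% at the 10th and 90th percentiles in each. The solute carrier list made up a median of 1.3% in both. Arterial and venous markers outside the rule had medians of 0% and 0.05% in both libraries, with 90th percentiles of 0.15%, and their highest cells had 2.3% and 2.45% from arterial markers in KO and WT.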

How the data were processed

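Each of the 2 libraries (groups from the labels) came as a sparse matrix of raw UMI counts per gene and barcode, deposited by the authors for 32285 genes and and written by Cell Ranger 7.0.1, as read per the file headers. Per the submitters' processing notes, STAR, Seurat 3.1.1 and the build GRCm38 (mm10) were also used; their settings are not given in the sources used here. Capillary cells were found by the limits given above. The members and the gene lists were chosen with earlier results of these data known. UMIs were summed per library and cell group, scaled to CPM and compared as log2 ratios after adding 10 CPM; genes needed 50 UMIs for 2-fold counts and 20 UMIs for list counts, at 25% higher or 20% lower. With 1 library per group no test was made. Intervals are exact Poisson, Clopper-Pearson or conditional binomial. The code was tested on simulated data. Named genes are the 10 highest and 10 lowest ratios, Cd200, the 4 markers and up to 3 at each end of each list. Against arterial and venous-side cells, 8 each way were named. The rankings leave out mitochondrial, ribosomal, haemoglobin, sex-linked, receptor segment and predicted genes and Cd200r1. They also leave out markers of other cell types and of arterial, venous, and fenestrated or sprouting endothelium. Genes outside this rule (Mndal and the other Ifi200 genes, S100a8, S100a9, Nrgn, Depp1, Rbp7 and the variable genes) were chosen after their values were seen. Doublets were called with Scrublet in scanpy 1.11.5, which marked 3.07% of KO and 0.849% of WT barcodes, and were kept, with an alternative that leaves them out. Gene positions are from GENCODE vM21. Python 3.11.15, numpy 2.4.6, scipy 1.17.1, R 4.3.3, edgeR 4.0.16 (TMM) and DESeq2 1.42.0 (size factors) were used, the R tools for scaling alternatives alone.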

Additional observations from a re-analysis of the deposited data

Results flagged for a closer look

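Endothelial barcodes with fewer than 2000 UMIs take no part in the comparisons above, and they carried the interferon difference too. In 429 such KO barcodes the type I interferon list took 7949 CPM (7703 to 8201), against 3677 CPM (3507 to 3852) in 421 such WT barcodes, a ratio of 2.16 (2.04 to 2.29). The signal lies in barcodes that the comparisons do not use, which is why it is given here. With 1 library per group there is no test of it, and the intervals cover counting error only.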

How the results depend on the processing

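No paired analysis was possible because there is 1 library per group. Other gene minimums, scaling by TMM or size factors (which moved the median gene by -0.021 and -0.022 in log2), doublet removal and the other settings left list medians the same in 357 of 364 cases, none reversed, and named genes in 1731 of 1980, with 8 reversed. Leaving out mixed cells, leaving out shared barcodes, and thinning for the comparison with arterial and venous-side cells were added after seeing the data. With 1 and 50 CPM added in place of 10, the genes at least 2-fold higher in KO numbered 121 and 14, and those lower 118 and 4; those higher against arterial cells 135 and 15, lower 167 and 21; higher against venous-side cells 326 and 7, lower 91 and 19. The lower count was 12 after thinning, 12 at a Cldn5 and Flt1 share of 0.4%, 10 with the mean of cell CPM, and 6 without mixed cells. Genes higher against venous-side cells were 35 at 0.4%, 32 without mixed cells and 28 after thinning. The interferon median was 1.17 with 1 CPM and 0.70 with 50 CPM, and with 50 CPM the GTPases had 0.47 and MHC class I 0.33. The list of CD200 and its receptors had -0.57 after thinning, -0.53 with the mean of cell CPM, and -0.013 with no gene minimum, which brings in genes near 0. At 4000 UMIs the capillary share had ratios of 0.755 of barcodes and 1.05 of endothelial cells. Reversed were Ncam1 (0.033), Sgcd (0.039) and Lcn2 (0.074) without mixed cells, Ltf at 0.4% (0.008), with halved limits on other types (0.026) and without mixed cells (0.063), and Hey2 (0.071) and Errfi1 (-0.029) after thinning. The causes were not tested, and Ncam1 is itself among the genes that define mixed cells. Genes under about 20 UMIs are too shallow to compare.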

Other observations

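Ifi203, Ifi213, Mndal and Ifi206 ranked lowest in KO capillary cells without the mixed cells. That ranking left out markers of other cell types and of arterial, venous, and fenestrated or sprouting endothelium, Plvap among them. These 4 genes lie in one stretch of chromosome 1. After this was seen, all 12 protein-coding genes between chr1:173468485-174031810 (GRCm38, GENCODE vM21) were read out. Of 9 with at least 20 UMIs in capillary cells, 7 were lower in KO by the limit for lists and 1 higher, with a median log2 ratio of -0.75. Over all genes with 20 UMIs, 2.47% were lower and 2.64% higher. The 4 genes that prompted the readout are among the 7, so the count and median rest partly on the values that chose the stretch. The other lower ones were Ifi207, Ifi208 and Ifi211. Mndal had 91.0 CPM in KO and 226 CPM in WT capillary cells. Ifi207 had 12.2 CPM in KO and 27.3 CPM in WT, and Ifi208 had 6.86 and 15.6 CPM. Ifi209 was the gene that was higher, at 5.20 CPM in KO and 1.60 CPM in WT, and Ifi204 lay within the limit, with a log2 ratio of -0.28.

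In microglial barcodes Ifi204 had 64.2 CPM in KO and 23.2 CPM in WT, Ifi207 had 26.9 and 13.8 CPM, and Ifi209, higher in both kinds of cell, had 28.8 and 9.36 CPM. Ifi203 stood at 5.24 CPM in KO and 4.33 CPM in WT microglial barcodes, with a log2 ratio of 0.089. In venous-side cells Mndal and Ifi203 had log2 ratios of -1.54 and -1.40, and in arterial cells -0.74 and -0.94. Not every gene of the stretch was lower in these groups. Ifi204, Ifi206 and Ifi207 had -0.093, -0.058 and 0.084 in arterial cells, and 0.066, -0.63 and -0.72 in venous-side cells. Ifi208, Ifi211 and Ifi213 had -0.30, -0.36 and -0.66 in arterial cells, and -0.36, -0.51 and -1.22 in venous-side cells. Ifi203 overlaps the span of Mndal on the same strand, and the genes are close copies, so the counts of single members are uncertain. The cause of the difference was not tested.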
